A study of Mus musculus with 2 samples.

Results

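The Mir532 hairpin was read here through 2 sequences that the study's collection lists as piRNAs, mmu_piR_025576 on the 5′ arm of the hairpin and mmu_piR_028975 on its 3′ arm. The study counted 39986 annotated mouse piRNAs, of which 90 had a read in at least 1 library, and these 2 are the only detected ones that lie within Mir532. The pair was chosen from earlier results on these libraries, by read abundance and by the unequal levels of the arms. Their levels, the ratio of the arms and the comparison of those between the libraries are therefore given as a description. The data were 1 small RNA library of GC-1 cells at 0 nM MC-LR (control) and 1 library of GC-1 cells kept with 500 nM MC-LR (exposed), both at 24 h. GC-1 is an immortalised mouse spermatogonial line, and MC-LR is microcystin-LR, a cyanobacterial toxin that inhibits protein phosphatases. Both cultures had the same medium and serum, and the question was which piRNAs differ after the toxin. The deposited tables list piRNAs only, so markers of spermatogonia were not examined.

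A miRNA hairpin is cut from its primary transcript by Drosha, and its loop is removed by Dicer. The cuts leave a short duplex of both arms with a 3′ overhang at each end. One strand is usually loaded into an Argonaute protein as the guide, and the other is mostly discarded. The guide finds its targets mainly through its seed, bases 2 to 8 from the 5′ end. A change of the 5′ end therefore moves the seed, whereas a change of the 3′ end leaves it in place. piRNAs are a different class, bound by PIWI proteins in germ cells and made without Dicer.

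The hairpin is printed to show where both sequences lie in it. It is the RefSeq sequence (GRCm38.p6), 96 nt at chrX:7248402-7248497 on the minus strand, with both arms in capitals.
Mir532: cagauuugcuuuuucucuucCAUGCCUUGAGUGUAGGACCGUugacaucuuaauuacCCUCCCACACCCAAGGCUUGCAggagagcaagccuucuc
The 5′ arm covers hairpin bases 21 to 42 (chrX:7248456-7248477) and the 3′ arm bases 58 to 79 (chrX:7248419-7248440), with 15 nt between them. In GENCODE M21 the hairpin is the exon of the miRNA gene Mir532. It lies within Clcn5, which encodes a chloride and proton exchanger and runs on the same strand. Of 5 annotated Clcn5 transcripts, 3 span the hairpin, and in each of them it is intronic, with 0 overlapping exons. It falls between exons 3 and 4, or between exons 2 and 3 in the transcript with the fewest exons before it.

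Both sequences are 22 nt long, matched 1 RefSeq hairpin each without a mismatch, and are shown with the seed in capitals.
mmu_piR_025576: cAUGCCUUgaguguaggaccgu
mmu_piR_028975: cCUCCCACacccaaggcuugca
mmu_piR_028975 is letter for letter the RefSeq mature mmu-miR-532-3p. For the 5′ arm, mmu-miR-532-5p, the seed was read from the annotated piRNA. The minimum free energy fold had an energy of -33.2 kcal/mol, with 15 base pairs between the arms. In it, 17 bases of the 5′ arm and 16 of the 3′ arm are paired. The full 3′ arm ends 2 nt past the base opposite the first base of the 5′ arm. The full 5′ arm likewise ends 2 nt past the base opposite the first base of the 3′ arm. Each annotated sequence thus has a 3′ overhang of 2 nt in this predicted fold, the length usual for Drosha and Dicer cuts.

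The 5′ arm was far more abundant than the 3′ arm in both libraries. mmu_piR_025576 took 9766 of the 244066 piRNA reads of the control and 8545 of the 359871 of the exposed library. mmu_piR_028975 had 54 control and 84 exposed-library reads. The 5′ arm was the second most abundant piRNA of both libraries, at 2.15 times the reads of the next one in the control and 1.66 times in the exposed library. The 3′ arm stood at rank 22 of 76 detected piRNAs in the control and at rank 21 of 77 in the exposed library. Counting error did not separate it from 4 others in the control, with 35 to 56 reads, or from 6 in the exposed library, with 65 to 97 reads.

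Reads of the 5′ arm outnumbered those of the 3′ arm 181-fold in the control (95% interval 138 to 241) and 102-fold in the exposed library (82.1 to 128). These are exact binomial intervals. They cover counting error only, since reads copied by PCR and counted without molecular identifiers are not separate molecules, and with 1 library per group no test of the conditions was possible. The 3′ arm made up 0.550% of the control's hairpin reads (0.413 to 0.717) and 0.973% of those in the exposed library (0.777 to 1.20). The difference, given here and below as exposed minus control, was 0.424 points (0.173 to 0.687). The arm ratio in the exposed library was 0.562 of that in the control (0.392 to 0.802). Both arms are counted in the same library, so this ratio does not depend on the library total. It compares these 2 libraries, and the spread between cultures is unknown.

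**Figure D1:**
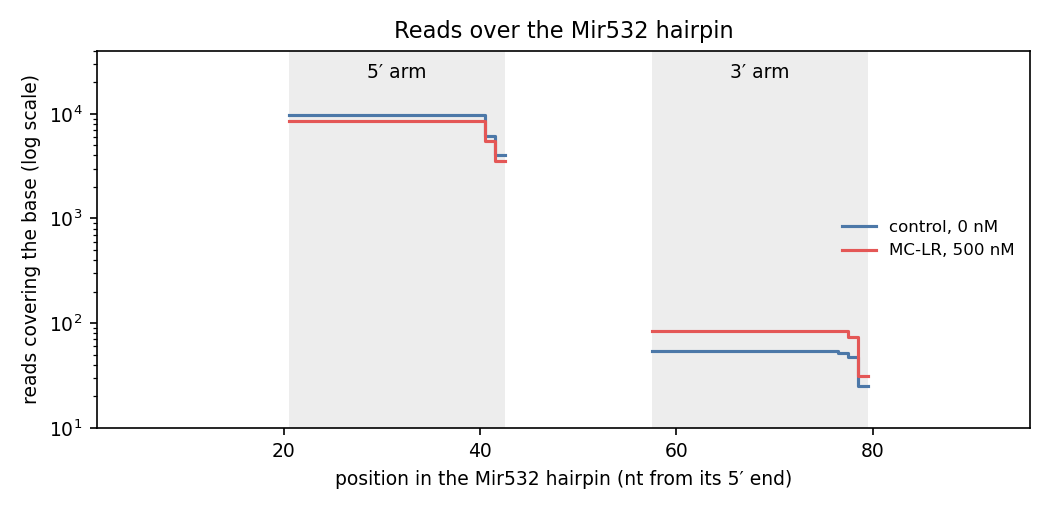
Reads covering each base of the 96-nt hairpin, on a log axis, for the control (blue) and the exposed library (red), with grey bands for the annotated arms. Coverage steps down towards the 3′ end of each arm, and the red line is below the blue one on the 5′ arm and above it on the 3′ arm. Reads are not scaled, and the exposed library has more piRNA reads in all, 359871 against 244066. Scaled to these totals, the ratio of the 3′ arm was 1.05 (0.741 to 1.51).

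Expressed per 1000000 piRNA reads (CPM), the 5′ arm stood at 40014 in the control and at 23745 in the exposed library. The ratio, MC-LR over control, was 0.593 (0.576 to 0.611). The 3′ arm stood at 221 and 233 CPM, a ratio of 1.05 (0.741 to 1.51) whose interval includes 1. A single control read was worth 4.10 CPM, and a read of the exposed library 2.78 CPM. A piRNA was called higher or lower where either library had 10 or more reads, the CPM ratio was 2 or above, or 0.5 or below, and the interval left out 1. Of the 43 piRNAs with enough reads, 6.98% were called higher and 18.6% lower, and of the 2 arms 0 were called in either direction. Of these 43, 13 had a lower ratio than the 5′ arm and 32 a lower ratio than the 3′ arm, and the median ratio was 0.756.

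The share of the most abundant piRNA differed between the libraries as well. That sequence, the 5S ribosomal RNA fragment mmu_piR_000691, held 87.6% of control reads and 91.4% of exposed-library reads. Without its reads in the total, the ratio of the 5′ arm was 0.852 (0.828 to 0.877) and that of the 3′ arm 1.52 (1.06 to 2.17). Its part in the level of each arm was not tested further.

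**Figure D2:**
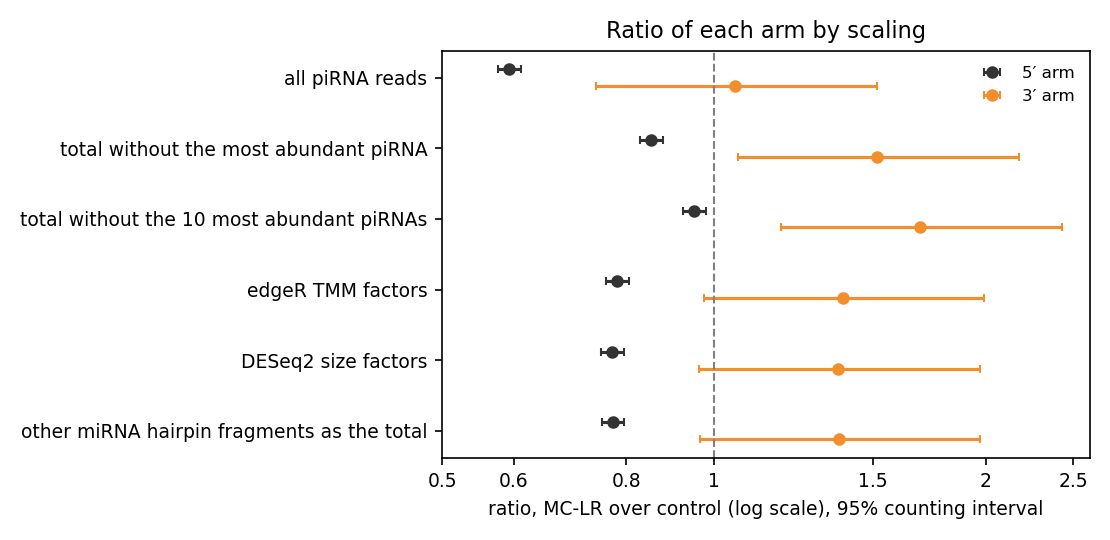
Ratio of each arm, MC-LR over control, on a log axis with 95% counting intervals, under 6 ways of scaling the libraries. The 5′ arm (black) lies below 1 in all 6, from 0.593 to 0.951, and the 3′ arm (orange) lies above 1 in all 6, from 1.05 to 1.69, with an interval that includes 1 in 4 of them. The intervals take the scaling totals as fixed and leave out their counting error. Without the 10 most abundant piRNAs the totals are only 2507 control and 2307 exposed-library reads, so the interval at 0.951 is too narrow.

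Fragments of other miRNA hairpins gave a scale free of the 5S fragment. Besides the 2 arms, 14 detected piRNAs lie within a RefSeq hairpin, with 4890 control and 5535 exposed-library reads in all. Per read of these 14, the 5′ arm had 1.997 in the control and 1.54 in the exposed library, a ratio of 0.773 (0.736 to 0.811). Those with at least 100 reads in both libraries were mmu_piR_017405 of Mir744 and mmu_piR_028252 of Mir1839. Per read of the Mir744 fragment, the 5′ arm had 2.39 in the control and 1.84 in the exposed library, a ratio of 0.770 (0.731 to 0.811). Per read of the Mir1839 fragment it had 18.3 and 12.7, a ratio of 0.697 (0.618 to 0.784). The 5′ arm was thus lower in the exposed library against both by more than counting error. The Mir744 fragment gave 4084 of the control and 4641 of the exposed-library reads of the 14, so its comparison and theirs are nearly the same. Hairpin fragments with fewer reads lay on both sides of the 5′ arm. By CPM ratio, Mir872 (mmu_piR_020120) at 0.437 (0.329 to 0.578) and Mir138-1 (mmu_piR_000273) at 0.233 (0.110 to 0.459) were below its 0.593. Mir1306 (mmu_piR_023189) at 1.03 (0.593 to 1.83) and Mir3068 (mmu_piR_035888) at 5.09 (1.18 to 45.8) were above. The interval of Mir1306 overlaps that of the 5′ arm, and Mir3068 had only 2 control reads. Others with at least 10 reads in a library ran from 0.549 (Mir1843b) to 1.36 (3′ arm of Mir871). Against all 14 the 3′ arm gave 1.37 (0.963 to 1.98), and that interval includes 1. Of the reads of detected piRNAs that lie within a RefSeq hairpin, the 2 arms held 66.8% in the control and 60.9% in the exposed library. Only piRNAs were listed, so these are not shares of all miRNA reads.

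Mir871 was the other hairpin with a detected piRNA on each arm. Its 5′-arm fragment mmu_piR_031037 had 4 control and 0 exposed-library reads, and its 3′-arm fragment mmu_piR_015997 had 7 and 14. These counts are too small for an arm ratio to be compared with that of Mir532. Mir188, Mir362, Mir500 and Mir501 are the neighbours of Mir532 within Clcn5 that were matched in RefSeq, with 8 mature sequences among them. A detected piRNA lay within 0 of these 4 hairpins. Whether the piRNA collection lists a sequence from them was not examined, so this does not give their level.

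The reads of both arms came as 11 distinct sequences, 11 in the control and 10 in the exposed library. The files list forms up to 3 nt shorter than the annotated piRNA and without a mismatch, so longer, tailed or edited forms were not measured. The 4 forms of the 5′ arm that begin at its first base differ only at the 3′ end and are printed with the seed in capitals.
22-nt form: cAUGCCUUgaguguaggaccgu
21-nt form: cAUGCCUUgaguguaggaccg
20-nt form: cAUGCCUUgaguguaggacc
19-nt form: cAUGCCUUgaguguaggac
The 22-nt form had 4022 control reads and 3532 in the exposed library, the 21-nt form had 2071 and 1932, the 20-nt form 3553 and 2996, and the 19-nt form 111 and 70. The full-length form led in both libraries. The 20-nt form came next, and the 21-nt form between them was scarcer than either. Most reads of the arm thus ended at 2 positions with a scarcer one between them.

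**Figure D3:**
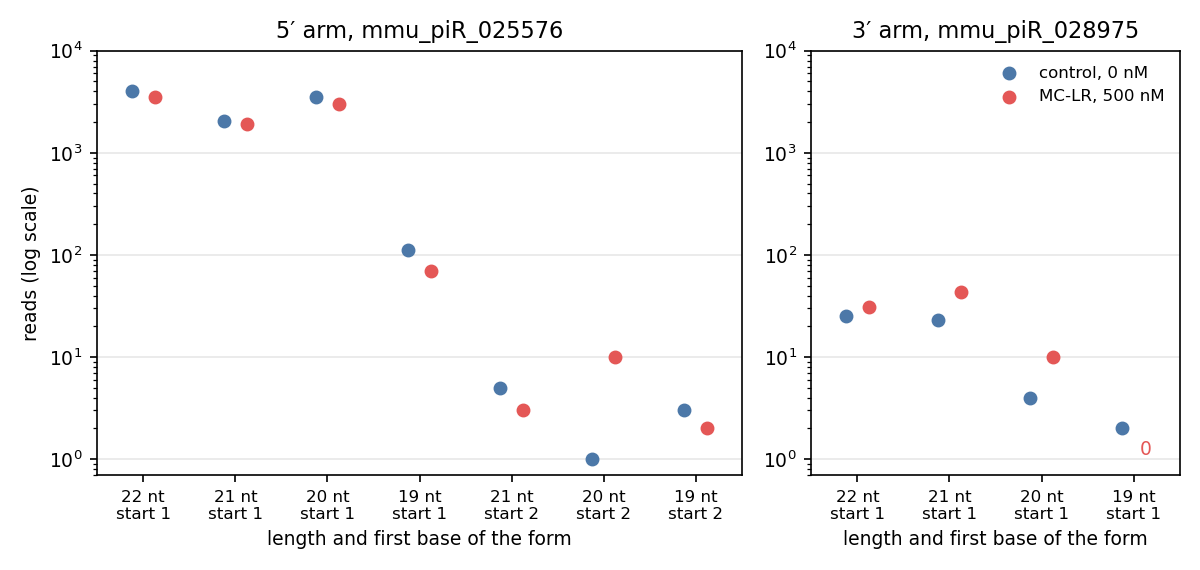
Reads of each form, on a log axis, in the control (blue) and the exposed library (red), labelled by length and by the base of the annotated piRNA at which the form begins. The 22-, 21- and 20-nt forms of the 5′ arm hold 1932 to 4022 reads, and the forms that begin at base 2 hold 1 to 10.

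Shares of the 3′ ends of the 5′ arm were close in the libraries. Counting all starts, the annotated 3′ end was reached by 41.2% of control reads (40.3 to 42.2) and by 41.4% of exposed-library reads (40.3 to 42.4), a difference of 0.134 points (-1.29 to 1.56). Reads that lacked 1 nt made up 21.2% (20.4 to 22.04) and 22.7% (21.8 to 23.6), a difference of 1.51 points (0.309 to 2.71). Those that lacked 2 nt made up 36.4% (35.5 to 37.4) and 35.1% (34.1 to 36.1), a difference of -1.33 points (-2.72 to 0.0647). The end 3 nt short took 1.14% and 0.819%, a difference of -0.317 points (-0.604 to -0.0297). The differences at 1 and 3 nt passed counting error, and none reached 2 points. The mean read length was 21.02 nt in the control and 21.04 nt in the exposed library, a difference of 0.0201 nt (-0.00598 to 0.0462). Among the 15 other piRNAs with at least 100 reads in both libraries, this difference ran from -0.0749 to 0.187 nt, and for 10 of them it was larger in size than for the 5′ arm.

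By CPM the 4 forms of the 5′ arm that begin at base 1 were lower in the exposed library. The ratio was 0.596 (0.569 to 0.623) for the 22-nt form, 0.633 (0.594 to 0.673) for the 21-nt form and 0.572 (0.545 to 0.601) for the 20-nt form. The 19-nt form had the lowest ratio of the 4, at 0.428 (0.312 to 0.582), and was called lower. Of the 97 forms of all piRNAs with at least 10 reads in a library, 2.06% were called higher and 16.5% lower. Among the 8 such forms of the 2 arms, 0 were called higher and 1 lower. With the 5S fragment out of the total, the ratio of the 19-nt form was 0.614 (0.449 to 0.836) and it was not called.

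Among the listed forms, which all lie within the annotated sequence, the 5′ end of the 5′ arm was nearly uniform. On both arms, a read that began before base 1 would also move the seed, and such reads were not measured. Of its reads, 9757 in the control and 8530 in the exposed library began at base 1 and kept the seed AUGCCUU, 99.91% (99.83 to 99.96) and 99.82% (99.71 to 99.90). The other 9 and 15 reads began at base 2, which moves the seed by 1 base to UGCCUUG. They made up 0.0922% (0.0421 to 0.175) and 0.176% (0.0983 to 0.289) of the arm, a difference of 0.0834 points (-0.0246 to 0.205) that counting error covers. Starts at base 3 or 4 had 0 reads in both libraries, which allows a share of up to 0.0307% in the control and 0.0351% in the exposed library. The 3 forms with the shifted seed, in capitals, are shown for comparison.
21-nt shifted form: aUGCCUUGaguguaggaccgu
20-nt shifted form: aUGCCUUGaguguaggaccg
19-nt shifted form: aUGCCUUGaguguaggacc
The 21-nt shifted form had 5 control and 3 exposed-library reads, the 20-nt one 1 and 10, and the 19-nt one 3 and 2. The 20-nt shifted form held most of the shifted reads in the exposed library, and its CPM ratio of 6.78 had an interval from 0.965 to 294. It was named after its values were seen. That interval includes 1, and the form was not called on the total of all piRNA reads. Under each of the 5 other scalings it met the rule for a higher form, with ratios of 8.82 to 10.9 and lower limits of 1.25 to 1.55. As a share of the 5′ arm, which does not depend on the scaling, it made up 0.0102% and 0.117%, a difference of 0.107 points (0.0351 to 0.205) that passes counting error. These values rest on 1 control read.

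Of 1679 mature miRNA names in the RefSeq table, 2 share the seed of the 5′ arm, mmu-miR-6339 and mmu-miR-6386. mmu-miR-532-5p was not among the names counted. The shifted seed of the 5′ arm is carried by 0 of them. mmu-miR-6386 is printed with its seed in capitals, to be set beside the 5′ arm.
mmu-miR-6386: cAUGCCUUagggugggaugcaagu
The seed CUCCCAC of the 3′ arm is carried by mmu-miR-532-3p alone. A 3′ arm that began at base 2 would carry UCCCACA, the seed of mmu-miR-188-3p from the neighbouring hairpin Mir188.
mmu-miR-188-3p: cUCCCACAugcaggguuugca
All 54 control and all 84 exposed-library reads of the 3′ arm began at base 1. A start at base 2, which would give that seed, thus had 0 reads, which allows a share of up to 5.56% in the control and 3.57% in the exposed library. At this depth a shifted share as small as that of the 5′ arm was not detectable on the 3′ arm.

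The 4 forms of the 3′ arm differed at the 3′ end alone. They are printed with the seed in capitals.
22-nt form: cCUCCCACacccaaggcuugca
21-nt form: cCUCCCACacccaaggcuugc
20-nt form: cCUCCCACacccaaggcuug
19-nt form: cCUCCCACacccaaggcuu
The 22-nt form had 25 control and 31 exposed-library reads, the 21-nt form 23 and 43, the 20-nt form 4 and 10, and the 19-nt form 2 and 0. The full-length form had the most reads in the control and the 21-nt form in the exposed library. Their shares were 46.3% (32.6 to 60.4) and 42.6% (29.2 to 56.8) in the control, and 36.9% (26.6 to 48.1) and 51.2% (40.04 to 62.3) in the exposed library. The 22-nt share differed by -9.39 points (-25.6 to 7.13) and the 21-nt share by 8.60 points (-8.31 to 24.7). Both intervals include 0, so the exchange of the leading form was within counting error. The mean read length was 21.31 nt and 21.25 nt, a difference of -0.0648 nt (-0.312 to 0.182).

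The arms differed in which 3′ ends they used, in both libraries and in the same direction. Reads that lacked 2 nt were rarer on the 3′ arm, at 7.41% against 36.4% on the 5′ arm in the control, a difference, 3′ arm minus 5′ arm, of -29.0 points (-33.6 to -18.8). In the exposed library they were 11.9% against 35.1%, a difference of -23.2 points (-28.6 to -14.5). Reads that lacked 1 nt were more frequent on the 3′ arm, by 21.4 points (9.09 to 34.6) in the control and 28.5 points (17.9 to 38.9) in the exposed library. The share that reached the annotated end differed by 5.06 points (-7.58 to 18.2) and -4.46 points (-14.1 to 6.27), within counting error. In the predicted fold, the 20-nt form of the 5′ arm ends at hairpin base 40, opposite the first base of the 3′ arm at base 58, and so has an overhang of 0 nt there. Bases 40 and 58 are unpaired in that fold, in an internal loop next to the hairpin loop. The 20-nt form of the 3′ arm ends at base 77, which is paired with the first base of the 5′ arm at base 21.

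**Figure D4:**
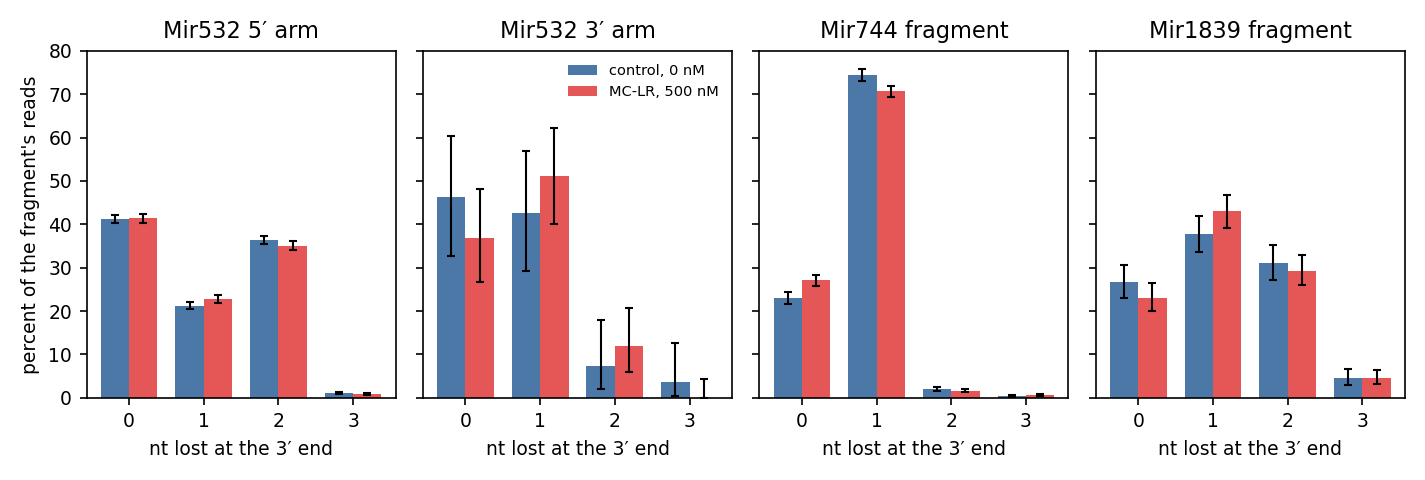
Percent of each fragment's reads by the nucleotides missing at the 3′ end, with 95% exact counting intervals, for both arms of Mir532 and the fragments of Mir744 and Mir1839 (control blue, MC-LR red). The 5′ arm of Mir532 has its lowest share among ends of 0 to 2 nt at 1 nt, where the Mir744 and Mir1839 fragments have their highest. Ends are counted from the annotated piRNA. For Mir1839 it runs past the mature miRNA, so its 1-nt end is not at the matching position.

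The Mir744 and Mir1839 fragments are printed with bases 2 to 8 in capitals, since their 3′ ends were compared with those of Mir532.
mmu_piR_017405: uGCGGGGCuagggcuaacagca
mmu_piR_028252: aGGUAGAUagaacaggucuuguu
The Mir744 fragment, identical to mmu-miR-744-5p, lacked 1 nt at the 3′ end in 74.4% of control reads (73.0 to 75.7) and 70.6% of exposed-library reads (69.3 to 71.9). Ends 2 nt short made up 2.08% and 1.66% of it. The Mir1839 fragment was spread more evenly, with 37.8% (33.6 to 42.0) and 43.0% (39.2 to 46.8) 1 nt short and 31.0% and 29.3% 2 nt short. Its piRNA begins 1 base after mmu-miR-1839-5p and ends 2 nt past it, so its ends are counted from another point than those of Mir744. Counted from the annotated end, the middle form was scarce in the 5′ arm of Mir532 but not in the Mir744 fragment. The intervals of the Mir744 fragment at 1 nt lie above those of the 5′ arm. For Mir1839, an end 1 nt short of the mature miRNA is 3 nt short of the piRNA, and took 4.49% and 4.61% of reads. Shorter ends of it were not listed, so its middle form cannot be set beside that of the 5′ arm. Among the listed forms, which leave out starts before the annotated base, the other hairpins, too, gave mostly the annotated 5′ end. The 14 other hairpin fragments had 11 shifted reads in the control and 7 in the exposed library, 0.225% and 0.126% of their reads, and Mir744 gave all 11 in the control and 3 of the 7. The rest came from the Mir3068 fragment mmu_piR_035888, where only 11 of 15 exposed-library reads began at the annotated base. Of these 14 piRNAs, 10 begin at the same base as the RefSeq mature miRNA. Among the 15 other piRNAs with at least 100 reads in both libraries, 3 began at the annotated base in over 99% of reads in both. They were the Mir744 and Mir1839 fragments and mmu_piR_000580, which lies in none of the RefSeq hairpins and was named after its values were seen. For the Mir1839 fragment the annotated base is not the first base of the mature miRNA. Reads with the mature 5′ end of Mir1839 would not be listed, so its share does not describe that end. The same limit holds for the fragments of Mir1306 and Mir3068, whose piRNAs begin 2 and 1 nt after the mature miRNA.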

How the data were processed

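Total RNA of GC-1 cells was extracted with TRIzol and sequenced as 1 small RNA library per group, per the labels' protocols. The authors deposited raw counts, as reads per annotated piRNA and per distinct sequence of each piRNA. Per the submitters' processing notes the build was mm8, and the aligner used is not given in the sources used here. In these tables the reads of the sequences added up to the piRNA counts, with 0 disagreements, and 0 sequences of either arm lay within another detected piRNA. A count of 0 was read as allowing 3 reads.

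Sequences were matched without mismatch, with U for T, to RefSeq hairpins and mature miRNAs (GRCm38.p6), and genes were taken from GENCODE M21. Coordinates come from this match alone, since the authors' build differs. The fold is from ViennaRNA 2.7.2, and statistics used Python 3.11.15 with scipy 1.17.1. Shares and CPM ratios have exact (Clopper-Pearson) intervals, differences between shares Newcombe intervals, ratios of ratios conditional exact intervals of the odds ratio, and mean lengths normal intervals over reads, all at 95%. Intervals of CPM ratios take the total or scaling factor as fixed. Functions were tested on simulated data. Alternative scalings were totals without the most abundant or the 10 most abundant piRNAs, edgeR 4.0.16 TMM factors, DESeq2 1.42.0 size factors and the reads of other hairpin fragments. Forms with at least 1% of an arm's reads were to be named, and hairpin fragments with at least 100 reads in both libraries compared. The members and lists were chosen with earlier results of these data known.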

Additional observations from a re-analysis of the deposited data

How the results depend on the processing

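No paired analysis was possible because there was 1 library for each group. The ratio of the 5′ arm, 0.593 on all piRNA reads, was 0.852 without the most abundant piRNA, 0.951 without the 10 most abundant, 0.781 with TMM factors, 0.772 with DESeq2 size factors and 0.773 against other hairpin fragments. That of the 3′ arm, 1.05, was 1.52 and 1.69 under both reduced totals. By the value of the ratio, the 5′ arm stayed below 1 and the 3′ arm above 1 under all 5 other scalings. Whether 0.951 is below 1 by more than counting error was not settled, since its interval leaves out the error of a small total. The factor between the libraries was 1.47 with all piRNA reads and 0.920 to 1.13 otherwise, so each of these raises every ratio. The arm ratio, MC-LR over control, was 0.5002 to 0.562 under the 3 alternatives tried. The lowest value came with forms of at least 10 reads only, a cut that drops the 20-nt form of the 3′ arm in the control and keeps it in the exposed library. The share of 5′-arm reads that keep the seed was 100% in the control with forms of at least 10 reads only, since that drops every shifted form there, and 57.1% in both libraries with each form counted once. With forms of at least 10 reads only, this share differed by -0.117 points (-0.215 to -0.0507), exposed minus control, against -0.0834 points (-0.205 to 0.0246) with all forms. The cut is applied to each library, and of the shifted forms it keeps only the 20-nt one, with 10 exposed-library reads. The first interval leaves out 0, but the cut fixed its direction, so no conclusion on the seed share is drawn from it. The mean length of the control 5′ arm was 21.05 nt without its 19-nt forms. Of 99 values under alternatives, 86 stayed within the counting interval of the reported value, 13 moved and 0 reversed. The scalings of the 19-nt form and of the 20-nt shifted form, and the arms per read of the Mir744 and Mir1839 fragments, with all forms or by annotated 5′ end, were added after seeing the data. Depth limits the 3′ arm most, with 54 and 84 reads: a shifted share below 5.56% in the control or 3.57% in the exposed library, or a change of a few points in its ends was not detectable.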
